A study of Rattus norvegicus with 48 samples.

Results

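Coq10b and 9 genes of the cell's antioxidant defence, Hmox1, Nqo1, Gclc, Gclm, Txnrd1, Sod1, Sod2, Sod3 and Cat, were followed in the rat retina and posterior eye after removal of the ovaries. These 10 genes, of 32883 in the count tables, were taken by gene symbol, and all 10 passed the filter on low counts in every fit. Coq10b was chosen by its measured values, as 1 of 3 genes that passed the test of ovariectomy against sham surgery in the young retina. The other 9 were named as well-known enzymes against oxidative damage. The values of the 10 genes in that young retina comparison are therefore given as a description, with no test.

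RNA was sequenced from 24 female Long-Evans rats, with 1 retina library and 1 posterior eye library per animal. The animals formed 4 groups of 6, called here aged OVX, aged sham, young OVX and young sham. OVX is ovariectomy, which removes the ovaries and most circulating oestrogen, and the sham animals had surgery that left the ovaries in place. Aged animals, middle-aged in the submitters' words, were 9 to 10 months old, and young animals were 3 to 4 months old. No transgene or drug is given in the labels. The design asks what loss of the ovaries does to gene expression in each tissue and at each age.

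Mitochondria leak superoxide, and the retina, with its high oxygen use and constant light, is a tissue where this matters. Superoxide dismutases turn superoxide into hydrogen peroxide, which catalase and the glutathione and thioredoxin systems remove. Many genes of these systems are switched on by the transcription factor NRF2 (gene Nfe2l2), which binds antioxidant response elements in promoters. Coenzyme Q carries electrons in the respiratory chain and is itself a lipid antioxidant, and Coq10b encodes a mitochondrial protein that binds it, a role best known from its yeast counterpart.

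The promoter stretches below show where the core letters of the antioxidant response element occur in these genes. The letters TGACNNNGC were searched on both strands in the 250 bases before and 50 bases after each start in the RefSeq promoter table (build GRCr8). Windows were there for 8 of the 10 genes, 9 windows in all because Txnrd1 had 2, and Hmox1 and Sod3 were not matched. The letters occurred in 1 window each of Gclm, Sod2 and Txnrd1, and in 4038 of all 33469 windows (12.1%). Each stretch reads 5′ to 3′ in the direction of its gene, and the capitals mark the match, which lies on the opposite strand.
Gclm: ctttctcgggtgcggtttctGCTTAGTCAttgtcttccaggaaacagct
Sod2: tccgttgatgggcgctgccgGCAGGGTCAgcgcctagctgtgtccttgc
Txnrd1: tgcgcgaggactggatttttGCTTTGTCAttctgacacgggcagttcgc
The Gclm match began 172 bases before the start, in the window chr2:213031885-213032184 on the plus strand. The Sod2 match began 35 bases before the start, in chr1:50050119-50050418 on the minus strand. The Txnrd1 match began 78 bases before the start, in chr7:22755855-22756154 on the minus strand. The Coq10b window, chr9:64047918-64048217 on the plus strand, held no match. Its 250 bases before the start are shown because Coq10b is the gene that the ovariectomy comparison turns on.
Coq10b: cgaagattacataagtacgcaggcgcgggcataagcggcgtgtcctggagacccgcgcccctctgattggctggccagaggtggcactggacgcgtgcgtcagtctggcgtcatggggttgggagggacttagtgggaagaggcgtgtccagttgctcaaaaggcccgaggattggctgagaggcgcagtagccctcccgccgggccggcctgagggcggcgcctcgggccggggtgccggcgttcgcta
A match is a run of letters and no measure of binding.

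Posterior eye libraries held 11470945 to 22971367 counts, and retina libraries 12916146 to 30737547. Levels are given in CPM, the count relative to the scaled library total on edgeR's standard scale. The common biological coefficient of variation between animals was 33.4% for posterior eyes against 12% for retinas, so precision was lower in posterior eyes. Rod markers, which define retinal photoreceptors, averaged 1.57 to 10.2 log2 CPM in single posterior eye libraries and 11.5 to 11.8 log2 CPM in single retina libraries. Posterior eye libraries also carried skeletal muscle markers at a mean of 9.82 to 12 log2 CPM. Retina libraries carried lens markers, whose summed level ran from 1010 to 24200 CPM in single libraries. The median of that sum was 11600 CPM in aged OVX, 3170 in aged sham, 12800 in young OVX and 14600 in young sham retinas. The part of lens material in the retina values was not tested. In such whole-tissue libraries, fewer cells of a type and less RNA per cell cannot be told apart. The library numbers in the labels run in group order, so group and any order of handling cannot be told apart.

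In the young retina, Coq10b stood higher after ovariectomy. Its level was 39.2, 38.1, 35.4, 36.2, 30.3 and 30.2 CPM in the young OVX animals, against 23.4, 25.2, 26.2, 26.3, 30.2 and 26.7 CPM in the young sham animals. The groups touched at 30.2 CPM, and 6 of 6 OVX libraries lay above the sham median. The means were 34.9 ± 3.85 CPM and 26.3 ± 2.23 CPM (SD, n = 6 each), a log2 fold change of 0.41 ± 0.07 (SE). Of all 15481 genes tested, 0.0194% were called in this comparison, where called means an adjusted p under 0.05 in edgeR's quasi-likelihood test. Among the 10 genes the called one was Coq10b, by which it was chosen. The next smallest p was that of Nqo1, at a log2 fold change of 0.42 ± 0.14, which was not called.

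In the aged retina, which shares no library with that comparison, Coq10b did not differ detectably. It ran from 24.4 to 29.2 CPM in aged OVX animals, with a median of 27.9, against 25.5 to 30.5 CPM and a median of 28.6 in aged sham animals. The groups overlapped almost entirely, and the log2 fold change was -0.06 ± 0.07 (edgeR's quasi-likelihood test, Benjamini-Hochberg adjusted p = 0.942). The difference between the aged and the young effect was -0.46 ± 0.10 on the log2 scale. Between ages, Coq10b differed by -0.35 ± 0.07 log2 in OVX retinas and by 0.11 ± 0.07 log2 in sham retinas, aged over young. The last 3 values use the young retina libraries that chose the gene and are given without a test.

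Posterior eye levels of Coq10b were close in all 4 groups. They averaged 29.6 ± 2.52 CPM in aged OVX, 28.7 ± 2.67 in aged sham, 29.2 ± 3.46 in young OVX and 28.2 ± 5.03 in young sham animals (SD, n = 6 each). The log2 fold change of OVX over sham was 0.04 ± 0.11 in aged animals (adjusted p = 1.00, edgeR) and 0.05 ± 0.11 in young animals (adjusted p = 0.999, edgeR). The lowest posterior eye library was a young sham animal at 18.9 CPM.

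Markers of the retinal pigment epithelium, the pigmented layer behind the retina, also differed between retina groups. Like Coq10b they stood higher in young OVX than in young sham libraries, but they were lower in aged OVX than in aged sham libraries, where Coq10b was nearly even. All 8 markers on the list were tested and none was at 0. Their mean level in the retina was 4.16 ± 0.20 log2 CPM in aged OVX, 4.94 ± 0.43 in aged sham, 5.02 ± 0.26 in young OVX and 4.41 ± 0.30 in young sham libraries (SD, n = 6 each). Their summed level was 521 to 573 CPM in aged OVX, 688 to 1070 in aged sham, 593 to 829 in young OVX and 564 to 771 in young sham libraries. Of these markers, Rgr, Rpe65 and Ttr were called for the difference between the aged and the young ovariectomy effect, beside 0.0452% of all genes. Rpe65, the isomerase of the visual cycle, was at -2.09 ± 0.39 log2 (adjusted p = 0.0406, edgeR). Within groups the marker level and Coq10b had a Pearson r of 0.22 over 24 retina libraries (rho = 0.197, permutation p = 0.327 and 0.38, adjusted over 150 relations to 0.881 and 0.838). Without the 2 libraries farthest from the median r was 0.14. With the marker level as a covariate, the Coq10b log2 fold change in the young retina was 0.35 ± 0.09 and in the aged retina 0.02. Melanocyte markers in the retina averaged 2.98 ± 0.63 log2 CPM in young OVX and 2.12 ± 0.55 in young sham libraries (SD, n = 6 each). They averaged 2.27 ± 0.41 in aged OVX and 2.53 ± 0.45 in aged sham libraries. The part of pigment epithelium and melanocyte markers in the Coq10b values was not tested further.

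**Figure D1:**
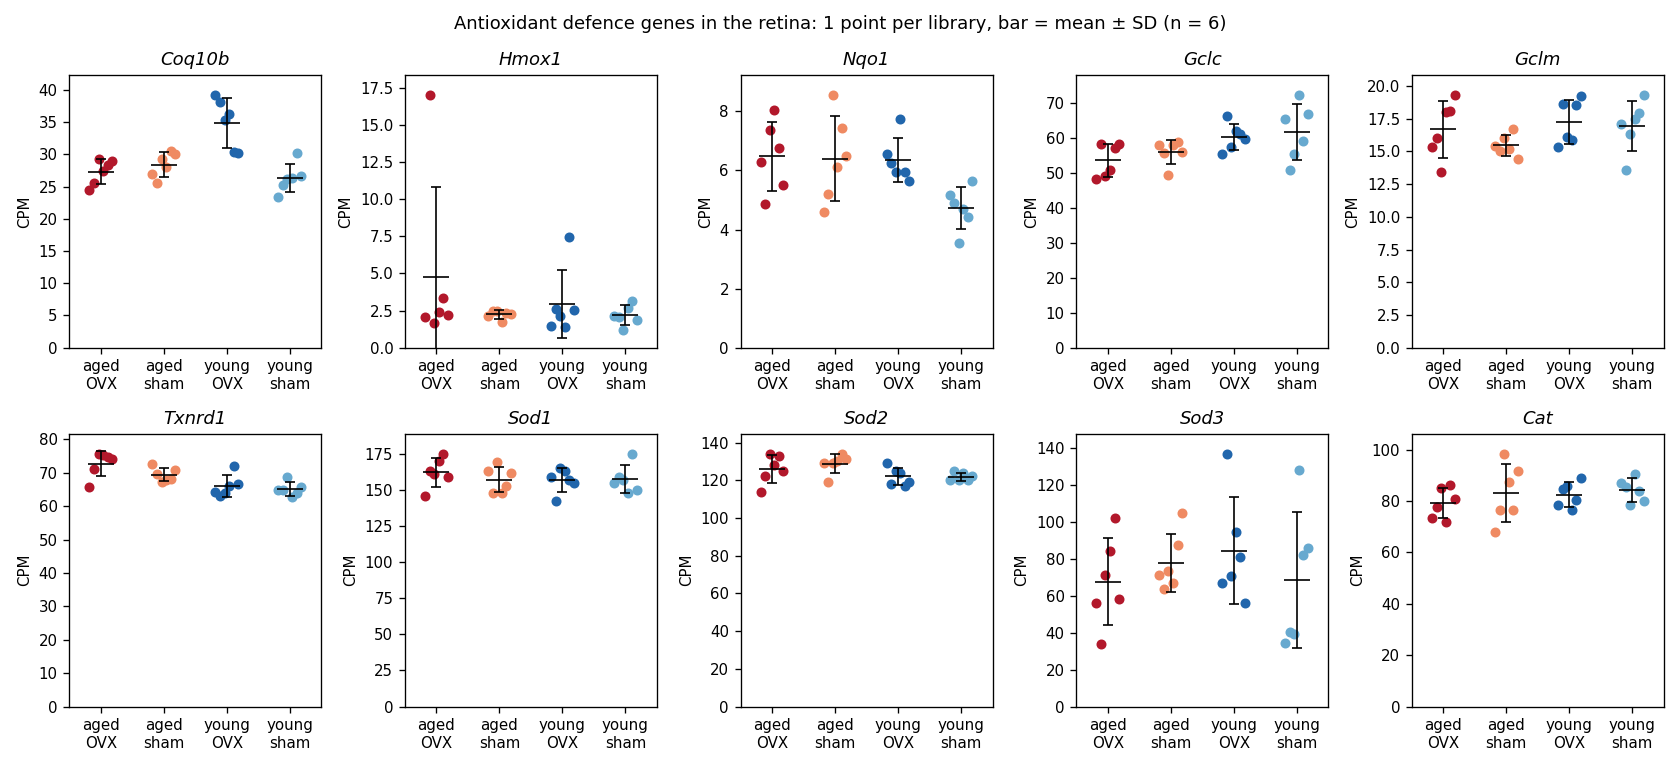
Level of each of the 10 genes in the retina (y axis, CPM from 0) in the aged OVX, aged sham, young OVX and young sham groups (x axis); points are libraries and bars are mean ± SD (n = 6). Coq10b stands at 30.2 to 39.2 CPM in young OVX retinas, and single high libraries at 17.0 and 7.47 CPM stand out for Hmox1.

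Nqo1, a quinone reductase and a classical NRF2 target, was low in the retina, at 4.87 to 8.04 CPM (median 6.53) in aged OVX, 4.59 to 8.55 CPM (median 6.30) in aged sham, 5.63 to 7.73 CPM (median 6.10) in young OVX and 3.53 to 5.64 CPM (median 4.81) in young sham libraries. Young sham retinas were the low group, and the highest of them overlapped the lowest young OVX library. The ovariectomy effect was 0.01 ± 0.14 log2 in the aged retina (adjusted p = 0.995, edgeR). Ageing gave 0.03 ± 0.14 log2 in OVX retinas (adjusted p = 0.977, edgeR) and 0.43 ± 0.14 in sham retinas (adjusted p = 0.261, edgeR), and neither passed the test.

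Posterior eye levels of Nqo1 stood higher in the older animals of both surgery groups. They ran from 116 to 192 CPM (median 148) in aged OVX and from 121 to 198 CPM (median 153) in aged sham animals, against 73.2 to 128 CPM (median 103) in young OVX and 61.5 to 147 CPM (median 102) in young sham animals. All 12 aged libraries lay above the young median, although the ranges overlapped. The aged mean was 156 ± 26.4 CPM and the young mean 102 ± 24.8 CPM (SD, n = 12 each). The log2 fold change of 0.60 ± 0.13 did not pass edgeR's test (adjusted p = 0.098), while DESeq2 called it at 0.61 ± 0.13 (adjusted p = 0.00332). With 1 library left out at a time, edgeR called it in 1 of 24 runs, with log2 fold changes from 0.56 to 0.67 and adjusted p from 0.0385 to 0.221. The run with the call left out young sham animal 3, the highest young sham library. Ageing changed Nqo1 by 0.37 ± 0.17 log2 more in the posterior eye than in the retina (adjusted p = 0.685, edgeR), which did not pass.

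Hmox1, the inducible haem oxygenase that breaks down haem, was low in the retina except in a pair of animals. It was 1.67 to 17.0 CPM (median 2.31) in aged OVX, 1.73 to 2.47 CPM (median 2.30) in aged sham, 1.40 to 7.47 CPM (median 2.34) in young OVX and 1.21 to 3.17 CPM (median 2.12) in young sham libraries. The high libraries were aged OVX animal 20, with 248 counts, and young OVX animal 11, with 138 counts. The aged effect of 1.07 ± 0.48 log2 did not pass (adjusted p = 0.751, edgeR), and without animal 20 it was 0.05 ± 0.33. Without animal 11 the young difference was -0.10 log2, against 0.43 with it. Hmox1 in the posterior eye averaged 22.5 ± 3.55 CPM in aged OVX, 21.5 ± 4.19 in aged sham, 24.6 ± 5.80 in young OVX and 24.9 ± 3.34 in young sham animals (SD, n = 6 each), and the groups overlapped.

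Gclc and Gclm encode the catalytic and modifier subunits of glutamate-cysteine ligase, the rate-limiting enzyme of glutathione synthesis. Gclc in the retina averaged 53.7 ± 4.76 CPM in aged OVX, 56.03 ± 3.38 in aged sham, 60.4 ± 3.76 in young OVX and 61.7 ± 8.01 in young sham libraries (SD, n = 6 each). No aged retina exceeded the young median of 60.6 CPM, but the log2 difference of aged over young, -0.15 ± 0.05, did not pass (adjusted p = 0.156, edgeR). The same comparison in the posterior eye was 0.15 ± 0.08 (adjusted p = 0.639, edgeR), the opposite sign, and the difference between tissues of 0.30 ± 0.10 did not pass (adjusted p = 0.492, edgeR). Gclm stayed between 13.4 and 19.3 CPM over all 24 retina libraries and between 24.6 and 42.0 CPM over the posterior eye libraries, with overlapping groups in both. Its ovariectomy effect in the aged retina was 0.11 ± 0.09 log2 (adjusted p = 0.876, edgeR).

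Txnrd1, the cytosolic thioredoxin reductase, rose slightly with age in the retina. It was 65.7 to 75.7 CPM (median 74.4) in aged OVX and 67.3 to 72.7 CPM (median 69.02) in aged sham retinas, against 63.2 to 72.0 CPM (median 65.3) in young OVX and 62.7 to 68.9 CPM (median 64.97) in young sham retinas. All 12 aged libraries lay above the young median, and the ranges overlapped. The log2 fold change of aged over young was 0.11 ± 0.03 (adjusted p = 0.0473, edgeR). DESeq2 also called it, at 0.11 ± 0.03 (adjusted p = 0.0166). The call was lost in edgeR with DESeq2's size factors (0.11 ± 0.03, adjusted p = 0.0542), with no filter on low counts (0.11 ± 0.03, adjusted p = 0.0937), with the pigment epithelium covariate (0.10 ± 0.03, adjusted p = 0.0895) and with the label number as a replicate block (0.11 ± 0.03, adjusted p = 0.0777). Leaving out 1 library kept the call in 4 of 24 runs, with adjusted p from 0.0206 to 0.0906 and log2 fold changes from 0.11 to 0.13. Of all genes tested, 0.736% were called for ageing in the retina, and Txnrd1 was 1 of the 10. Txnrd1 in the posterior eye averaged 87.2 ± 9.23 CPM in aged and 87.5 ± 4.27 CPM in young animals (SD, n = 12 each).

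The superoxide dismutases of the cytosol and the mitochondria were steady in the retina. Sod1 ran from 142 to 175 CPM over all 24 retinas and Sod2, the mitochondrial manganese enzyme, from 114 to 134 CPM. The ovariectomy effect was 0.05 ± 0.05 log2 for Sod1 in the aged retina (adjusted p = 0.92, edgeR) and -0.03 ± 0.04 for Sod2 (adjusted p = 0.942, edgeR). Sod2 was 0.06 ± 0.03 log2 higher in aged than in young retinas, which did not pass (adjusted p = 0.309, edgeR). Posterior eye Sod2 spread from 201 to 395 CPM in aged sham animals alone, and its ovariectomy effect was -0.02 ± 0.13 log2 in aged (adjusted p = 1.00, edgeR) and 0.00 ± 0.13 in young animals (adjusted p = 0.999, edgeR).

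Sod3, the secreted form that acts outside cells, varied widely between animals of a group in the retina. It was 33.95 to 102 CPM in aged OVX, 63.8 to 105 in aged sham, 56.1 to 137 in young OVX and 34.6 to 128 in young sham retinas. The ranges lay over one another, and the aged ovariectomy effect was -0.21 ± 0.28 log2 (adjusted p = 0.945, edgeR). Its posterior eye level averaged 395 ± 29.9 CPM in aged OVX, 359 ± 77.6 in aged sham, 409.7 ± 89.0 in young OVX and 323 ± 90.1 in young sham animals (SD, n = 6 each). The young posterior eye effect of 0.34 ± 0.18 log2 did not pass (adjusted p = 0.852, edgeR).

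Cat, the peroxisomal catalase, averaged 79.2 ± 5.87 CPM in aged OVX, 83.2 ± 11.3 in aged sham, 82.4 ± 4.79 in young OVX and 84.3 ± 4.51 in young sham retinas (SD, n = 6 each). Posterior eye means were 161 ± 23.4 CPM in aged OVX, 189 ± 63.8 in aged sham, 175 ± 25.2 in young OVX and 198 ± 12.8 in young sham animals. The mean ovariectomy effect there, -0.20 ± 0.11 log2, did not pass (adjusted p = 0.909, edgeR). The aged part of it, -0.23 ± 0.16, was -0.05 ± 0.13 without aged sham animal 15, which had the highest posterior eye level at 299 CPM.

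**Figure D2:**
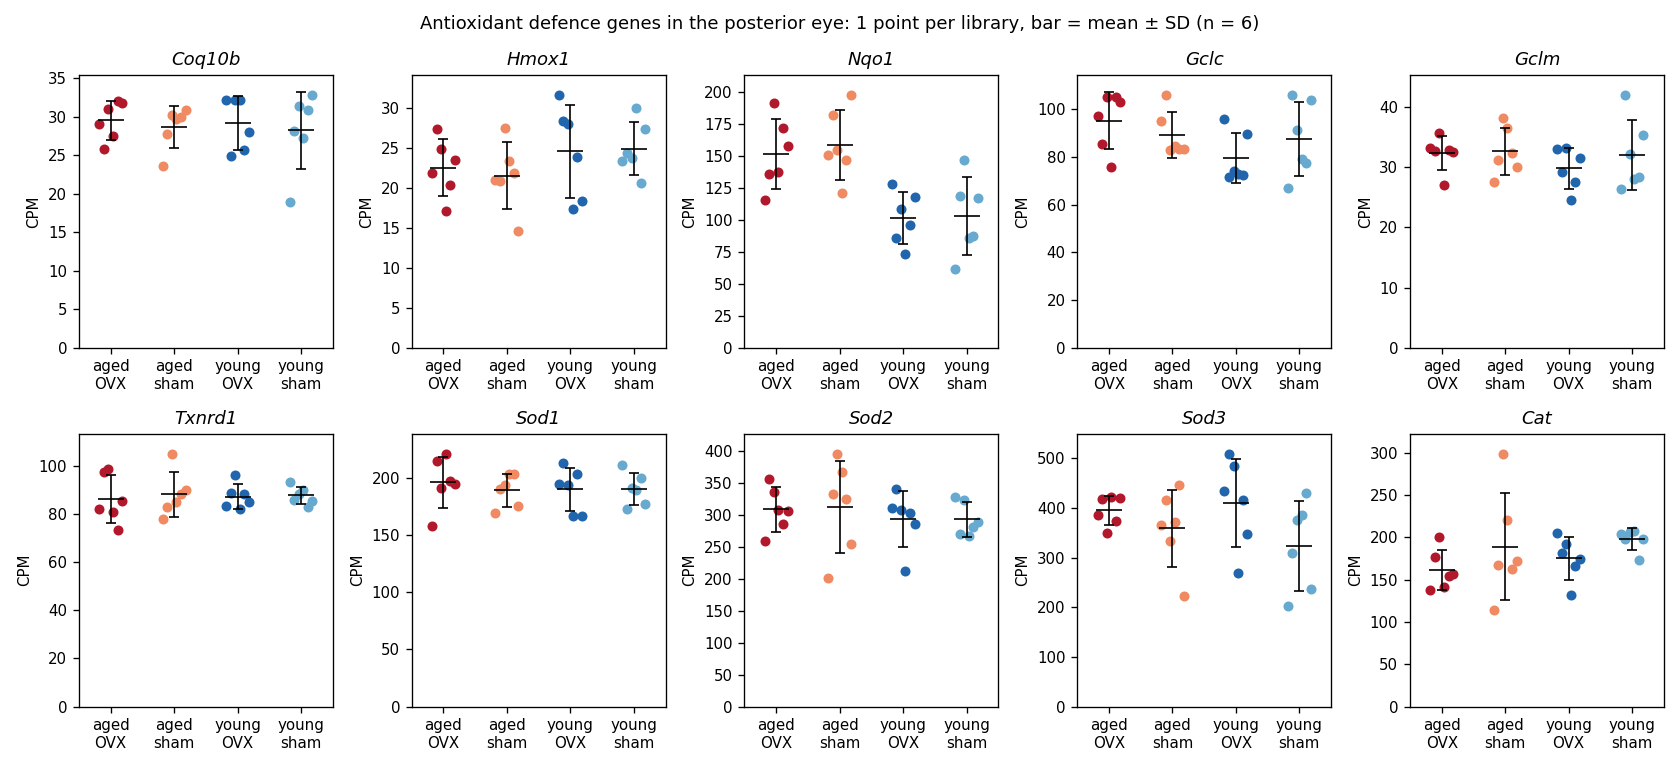
Level of each of the 10 genes in the posterior eye (y axis, CPM from 0) in the aged OVX, aged sham, young OVX and young sham groups (x axis); points are libraries and bars are mean ± SD (n = 6). Nqo1 stands at 116 to 198 CPM in the aged animals and at 61.5 to 147 CPM in the young animals.

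**Figure D3:**
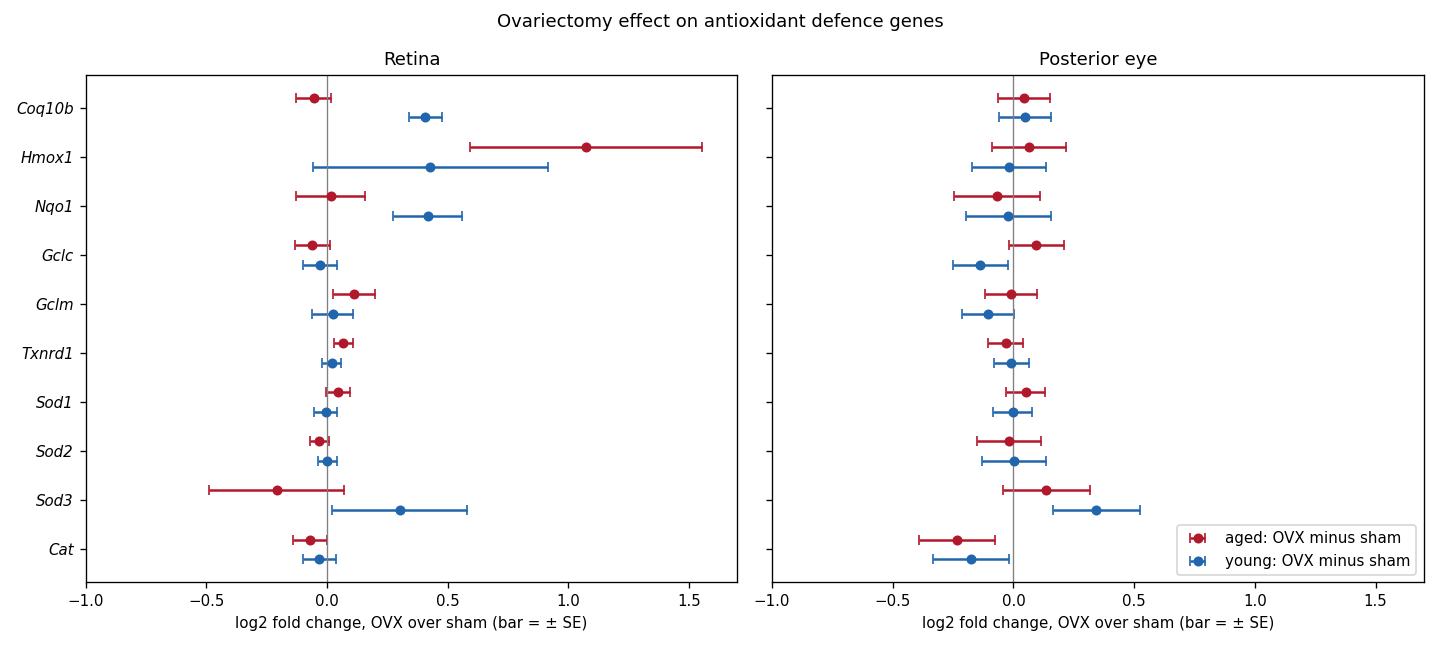
Log2 fold change of OVX over sham with its standard error (x axis) for each of the 10 genes (y axis) in aged and young animals, in the retina (left) and posterior eye (right). Coq10b lies at -0.06 in the aged retina and 0.41 in the young retina, and near 0 in the posterior eye at both ages; Hmox1 in the aged retina rests on 1 library.

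Counted over the 10 genes, edgeR called none for ovariectomy in the aged retina, where 0.00646% of all genes were called, nor for the mean ovariectomy effect over both ages (0.0517%) or the difference between ages (0.0452%). The last 2 comparisons, and those of ageing, use the young retina libraries by which Coq10b was chosen, so Coq10b is left out of the next counts. Of the other 9 genes, 1 had an unadjusted p under 0.05 for ovariectomy in the aged retina, beside 6.47% of all genes, 2 for the mean effect beside 10.8%, and 0 for the difference between ages beside 6.21%. DESeq2 called none of those 9 in these comparisons, and 9, 51 and 22 of all genes. Ageing in the retina over both surgeries gave an unadjusted p under 0.05 for 4 of the 9, namely Gclc, Nqo1, Sod2 and Txnrd1, beside 12.9% of all genes. In OVX animals it was 2 of the 9 beside 9.23%, and in sham animals 3 of the 9 beside 10.7%. By edgeR's adjusted p, none of the 9 was called for ageing within OVX animals, where 0.0711% of all genes were called, or within sham animals (0.0388%), and DESeq2 called none of the 9 in either. Coq10b was called for ageing within OVX animals, which is a description only, since those young OVX libraries chose it. No posterior eye comparison of surgery or age had an edgeR call among the 10 genes. The shares of all 16401 genes called there were 0.0061% for ovariectomy in young animals, 0.0488% for ageing over both surgeries and 0% in the other 5 comparisons. Unadjusted p under 0.05 was seen for at most 2 of the 10 in any of them, beside 2.57% to 10.1% of all genes. The single DESeq2 call was Nqo1 for ageing, 1 of 67 over all genes.

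All 10 genes were higher in the posterior eye than in the retina. In this comparison 93% of 17153 genes were called, 47.8% higher and 45.2% lower in the posterior eye, so a call by itself sets these genes little apart. Their median log2 fold change was 1.17, beside 0.05 for all genes tested. With levels scaled over all 48 libraries, Nqo1 averaged 135 ± 39.5 CPM in the posterior eye and 5.72 ± 1.19 CPM in the retina (SD, n = 24 each), a log2 fold change of 4.54 ± 0.10 (adjusted p = 2.83e-36, edgeR). Hmox1 averaged 24.6 ± 4.68 CPM in the posterior eye and 2.89 ± 3.00 CPM in the retina, and differed by 3.16 ± 0.19 log2. Sod3 averaged 389.8 ± 82.4 CPM in the posterior eye and 71.3 ± 25.3 CPM in the retina, and differed by 2.45 ± 0.13 log2. These 3 genes had the widest gaps of the 10.

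The other members differed less between tissues. Sod2 differed by 1.41 ± 0.05 log2, Cat by 1.27 ± 0.07 and Gclm by 1.07 ± 0.05. Gclc differed by 0.73 ± 0.05, Txnrd1 by 0.49 ± 0.03 and Sod1 by 0.41 ± 0.03. Coq10b was nearly even, at 30.3 ± 3.78 CPM in the posterior eye and 27.9 ± 3.97 CPM in the retina (SD, n = 24 each), a log2 fold change of 0.13 ± 0.05. The retina mean includes the young libraries that chose Coq10b, so this value and its call are a description, with no test. The paralogue Coq10a, also a coenzyme Q binding protein, differed by 1.06 ± 0.08 log2 (adjusted p = 7.25e-16, edgeR). With only the 8 posterior eye libraries whose rod level was under 6 log2 CPM, a choice made after seeing the data, all 10 kept their call, with Gclm at 1.24 ± 0.05, Cat at 1.43 ± 0.06 and Coq10b at 0.15 ± 0.05. For Coq10b this is again a description. Tissue differences of the ovariectomy and ageing effects use the young retina libraries that chose Coq10b, so it is left out here. No ovariectomy effect or ageing effect of the other 9 genes differed detectably between tissues. Across all genes 0.00583% and 0.035% were called for those differences. Of those 9 genes 0 and 2 had an unadjusted p under 0.05, beside 4.94% and 7.0% of all genes, while DESeq2 called none of the 9 in either.

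**Figure D4:**
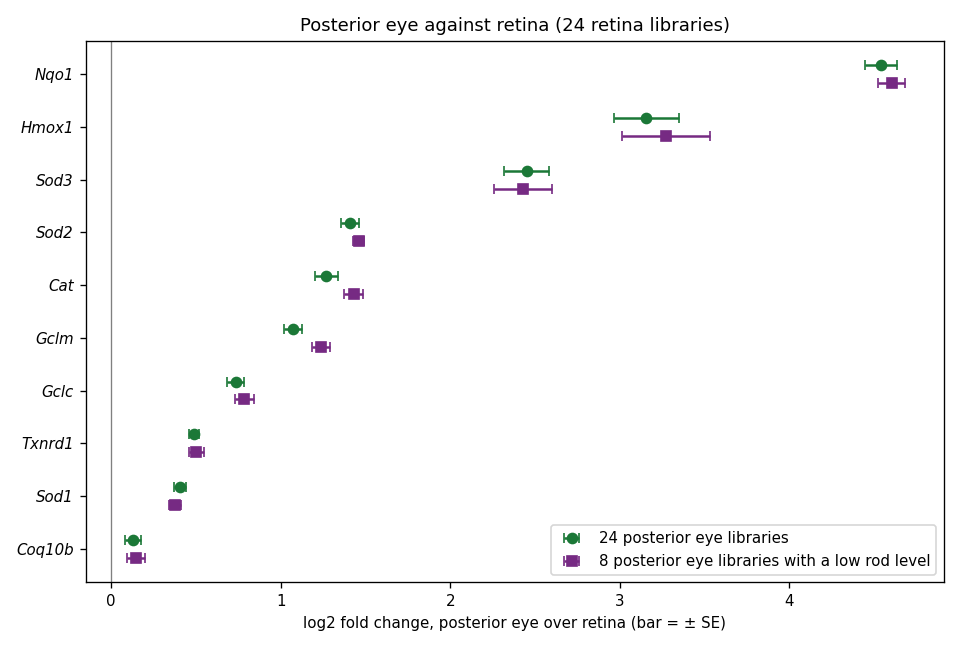
Log2 fold change of posterior eye over retina with its standard error (x axis) for the 10 genes (y axis), with all 24 posterior eye libraries and with the 8 that had a low rod level. All 10 lie above 0, from 0.13 for Coq10b to 4.54 for Nqo1 with all libraries.

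Most genes of the wider pathways were called between tissues, as were 93% of all genes tested. Among 24 glutathione genes, 20 thioredoxin and peroxiredoxin genes, 30 NRF2 regulators and targets, 13 coenzyme Q genes, 10 metallothioneins and other scavengers and 13 immediate early genes, edgeR called none for ovariectomy or ageing in either tissue. Over all genes it called 0% to 0.736% in those comparisons, so the absence of calls sets these lists little apart. Unadjusted p under 0.05 was seen in the young retina comparison of surgery for 2 of 22 tested glutathione genes, 2 of 19 thioredoxin genes, 5 of 27 NRF2 genes, 0 of 13 coenzyme Q genes, 3 of 10 scavengers and 4 of 11 immediate early genes, beside 11.7% of all genes. In the comparison of age in the posterior eye it was seen for 8 of 24, 3 of 19, 5 of 26, 0 of 13, 1 of 10 and 1 of 13 genes of these lists, beside 8.9% of all genes. DESeq2 called a few single genes in the retina, among them Gpx3, the secreted glutathione peroxidase, at 0.60 ± 0.17 log2 (adjusted p = 0.0330) and Txnip, the thioredoxin inhibitor, at -0.34 ± 0.10 (adjusted p = 0.0424), both for ageing. Its posterior eye calls included Glrx3 at 0.20 ± 0.05 (adjusted p = 0.0284) and Maff, a small partner protein of NRF2, at 0.37 ± 0.09 (adjusted p = 0.0213) for ageing. For the mean ovariectomy effect in the retina, DESeq2 called 51 of all genes. Among the listed genes these were Egr1, an immediate early gene, at -1.01 ± 0.27 (adjusted p = 0.0311) and Abcc1, of the NRF2 list, at -0.20 ± 0.06 (adjusted p = 0.0484). All the genes named here were picked because DESeq2 called them.

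Of the 13 other coenzyme Q genes in the young retina, 7 lay above 0 and 6 below, with a median log2 fold change of 0.01 for young OVX over young sham. Immediate early genes, which respond within minutes to stimulation and handling, lay below 0 in 11 of 11 for the same comparison (median -0.19 log2), and in 13 of 13 in the young posterior eye (median -0.44 log2), where 9 had an unadjusted p under 0.05. Over all genes, the median was -0.000719 log2 in the young retina. In the young posterior eye it was -0.01 log2, and 6.24% of all genes had such a p. DESeq2 called Fos there at -1.29 ± 0.29 log2 (adjusted p = 0.0152). Their part in the values of Coq10b was not tested.

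Between tissues the lists split, where 47.8% of all genes tested were called higher and 45.2% lower in the posterior eye. Of the glutathione genes, 22 were higher and 1 lower in the posterior eye of 24 tested. Among the called genes with the smallest p was Gpx1, a peroxide-reducing glutathione peroxidase, at 3.02 ± 0.06 log2 (354 CPM in the posterior eye and 43.7 CPM in the retina). Glrx, a glutaredoxin, was 4.47 ± 0.11 higher, Gpx2 8.53 ± 0.22 and Gstp1, a glutathione transferase, 2.37 ± 0.06. The exception was Gpx4, at -0.48 ± 0.13, which the tables list at 1.46 CPM in the posterior eye and 2.08 CPM in the retina. How reads matching several places were counted is not given in the sources used here, so the level and the sign for Gpx4 are uncertain. Of 19 thioredoxin and peroxiredoxin genes, 14 were higher and 5 lower, with Txnip at 5.16 ± 0.10, Txn1 at 4.43 ± 0.09, Prdx1 at 1.98 ± 0.05 and Prdx4 at 1.80 ± 0.06. Of 27 NRF2 regulators and targets, 22 were higher and 3 lower. NRF2 itself, Nfe2l2, averaged 134 ± 23.4 CPM in the posterior eye and 27.3 ± 2.24 CPM in the retina (SD, n = 24 each), 2.29 ± 0.06 log2 higher (adjusted p = 2.42e-32, edgeR).

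Of 13 coenzyme Q genes tested, 8 were higher and 5 lower in the posterior eye, beside 47.8% higher and 45.2% lower over all genes. Coq8a and Coq8b, both atypical kinases of coenzyme Q synthesis, lay on opposite sides. Coq8a was 3.99 ± 0.13 log2 higher, at 629 CPM in the posterior eye and 39.5 CPM in the retina, and Coq8b was -1.19 ± 0.05, at 30.2 CPM in the posterior eye and 68.7 CPM in the retina. Coq9, a lipid-binding subunit of the synthesis complex, was 1.79 ± 0.08 higher and Aifm2, the reductase that regenerates coenzyme Q at membranes, 1.06 ± 0.04 higher. Of the scavenger list 7 were higher and 2 lower of 10, with Selenop at 4.20 ± 0.07, Nnt at 3.19 ± 0.08, Mt2A at 2.76 ± 0.10 and Pon2 at 1.75 ± 0.07. Of 13 immediate early genes 8 were higher and 3 lower, with Junb at 2.89 ± 0.09 and Btg2 at -0.99 ± 0.06.

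Within groups, several of the 10 genes varied together in the posterior eye. Residuals of log2 CPM from the group means were correlated over 24 libraries for 45 pairs per tissue, with permutation p-values adjusted over the 45. In the retina no pair had an adjusted p under 0.05, the lowest being 0.104, and in the posterior eye 8 of 45 pairs had one for r and 7 for both r and rho. Sod2 and Cat in the posterior eye had a Pearson r of 0.82 (rho = 0.698, adjusted p = 0.0036 and 0.0123), which was 0.68 without the 2 libraries farthest from the median. Sod1 and Sod2 had r = 0.70 (rho = 0.693, adjusted p = 0.0036 and 0.0123, permutation) and 0.74 without 2 libraries. Nqo1 and Gclc had r = 0.70 (rho = 0.709, adjusted p = 0.0111 and 0.0123, permutation) and 0.66 without 2 libraries. The difference between tissues was not tested. The permutations treat libraries of different groups as independent. Posterior eye libraries of different groups with the same replicate number in their labels had residuals with a median r of 0.34. For other numbers it was -0.09, so the posterior eye permutation p-values may be too small.

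Several of the posterior eye genes also moved with markers of particular tissues, for which 15 marker lists were set against the 10 genes in each tissue, 150 relations per tissue. Both r and rho had an adjusted p under 0.05 in 11 of 150 relations of the posterior eye and 1 of 150 of the retina, and the strongest are given. The raw permutation p is given first below, and its smallest possible value is 1e-05. As for the pairs above, the posterior eye permutation p-values may be too small. Sod2 and skeletal muscle markers had r = 0.93 (rho = 0.883, p = 1e-05 for both, adjusted p = 0.00075 for both, permutation), and 0.85 without 2 libraries. Sod1 and skeletal muscle markers had r = 0.81 (rho = 0.843, p = 1e-05 for both, adjusted p = 0.00075 for both, permutation), and 0.83 without 2 libraries. The 5 tested muscle markers, of 6 on the list, had summed levels of 4710 to 21600 CPM over the posterior eye libraries.

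Hmox1 in the posterior eye moved with the 7 macrophage markers, with r = 0.79 (rho = 0.75, p = 6e-05 and 0.00032, adjusted p = 0.00175 and 0.006, permutation) and 0.72 without 2 libraries. Gclm ran against the 8 rod markers, with r = -0.74 (rho = -0.744, p = 5e-05 and 6e-05, adjusted p = 0.00175 and 0.003, permutation) and -0.73 without 2 libraries. Sod3 moved with the 4 tested melanocyte markers, with r = 0.80 (rho = 0.745, p = 7e-05 and 0.00018, adjusted p = 0.00175 and 0.0045, permutation) and 0.67 without 2 libraries. In the retina Sod3 moved with the 7 markers of Müller glia, the radial support cells of the retina, with r = 0.84 (rho = 0.845, p = 6e-05 and 0.00012, adjusted p = 0.009 and 0.018, permutation) and 0.81 without 2 libraries. The part of these markers in the group values was not tested beyond the covariate fits.

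Animals with more Coq10b in the retina tended to have more in the posterior eye. Over 24 animals the within-group r was 0.56 (rho = 0.56, permutation p = 0.0109 and 0.00904, adjusted over the 10 genes to 0.0546 and 0.0452), and 0.55 without 2 animals. The adjusted p of r was above 0.05 and that of rho below it. The retina values include the young libraries that chose Coq10b, so its correlation and p-values are given as a description. Cat had r = 0.73 (rho = 0.611, permutation p = 0.00232 and 0.00746, adjusted to 0.0232 and 0.0452), which was 0.46 without 2 animals. The other 8 genes had r between -0.33 and 0.15, with no adjusted p under 0.05.

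**Figure D5:**
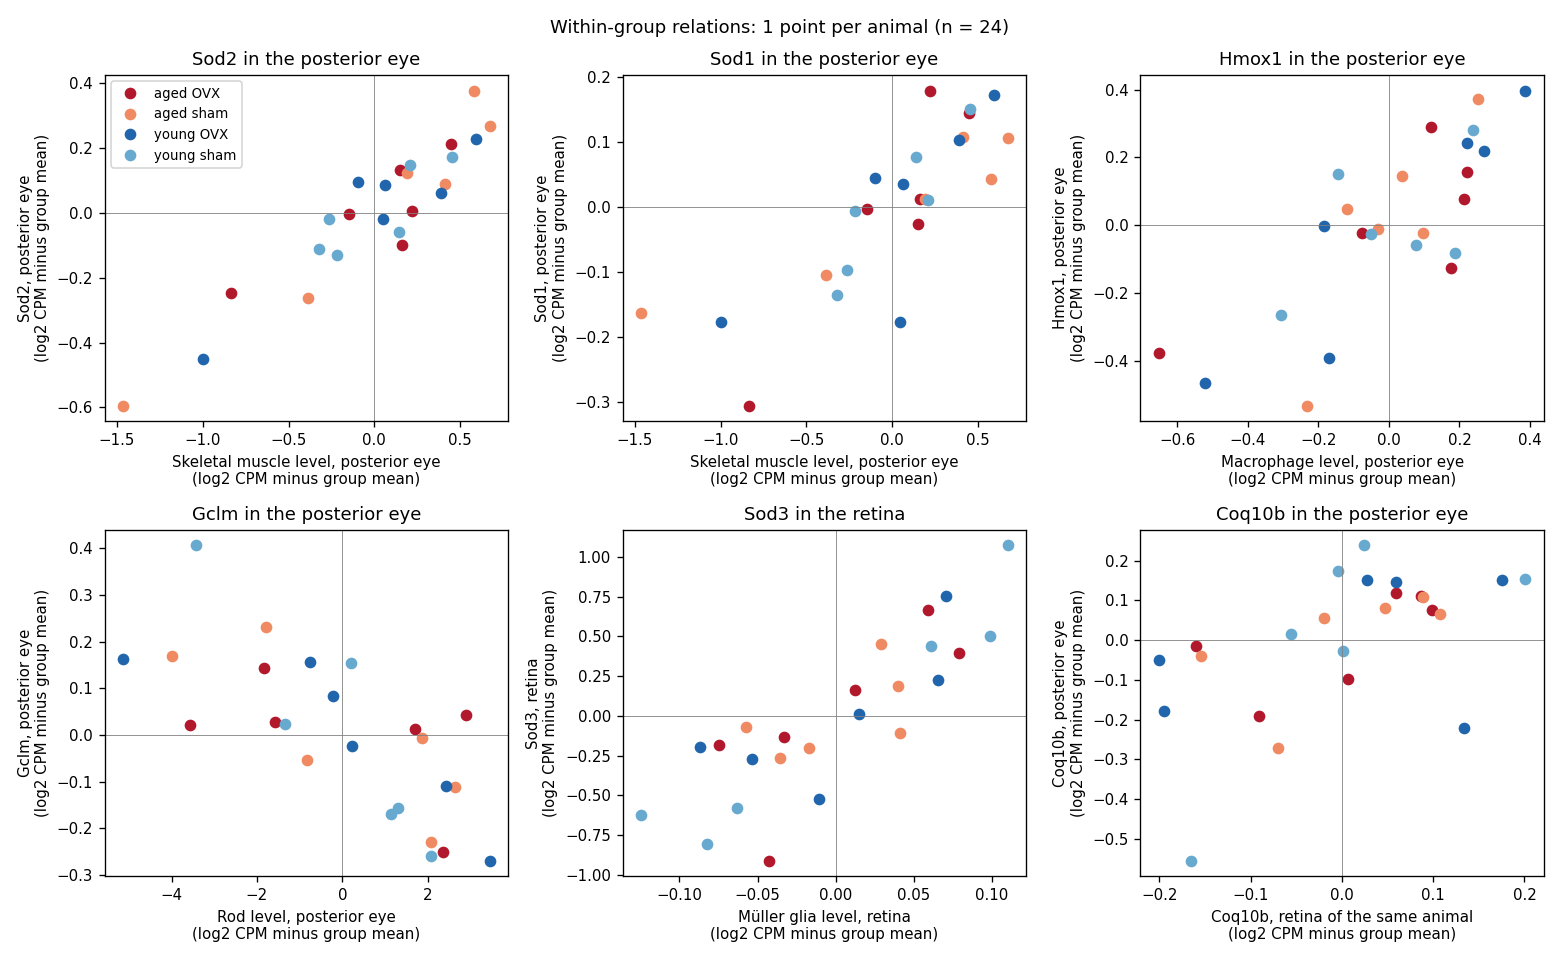
Within-group residuals of log2 CPM over 24 animals, coloured by group. The panels plot Sod2 and Sod1 (y axis) against skeletal muscle markers, Hmox1 against macrophage markers and Gclm against rod markers in the posterior eye, Sod3 against Müller glia markers in the retina, and posterior eye Coq10b against retina Coq10b of the same animal. Sod2 follows the muscle markers most closely (r = 0.93) and Gclm runs against the rod markers (r = -0.74).

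The genes whose within-group pattern was most like that of Coq10b over the 24 retina libraries were Mrpl10, Rpp14, Lamp1, Hexd and Calb1. Their Pearson r in the retina was 0.82, 0.81, 0.77, 0.74 and 0.72. They were picked as the 5 highest of all genes, so these values carry no test. Their posterior eye r with Coq10b was 0.08, -0.35, 0.34, -0.10 and -0.29.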

How the data were processed

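Per the labels' protocols, SMART-Seq v4 cDNA from 10 ng of RNA was made into Nextera XT libraries, with no strand-marking step, so overlapping and antisense genes can share reads. The authors deposited a table of raw counts for each tissue, in whole numbers; per the submitters' processing notes, STAR 2.7.3a, HTSeq, DESeq2 and the build Rnor_6.0 were used. Annotation and counting options were not stated in any source used. From these counts, edgeR 4.0.16 (R 4.3.3) was run with filterByExpr, TMM scaling and the quasi-likelihood F test over the 4 groups of a tissue, or all 8 groups for tissue differences. Its two-sided p-values were Benjamini-Hochberg adjusted across every gene tested. Standard errors are approximate, from the log2 fold change and F. Log2 CPM used a prior count of 2, and correlations 100000 permutations within groups. The permutation p-values of correlations are two-sided. DESeq2 1.42.0 was an alternative. Of the gene names for the posterior eye, 25 had become dates and were left out of the fit over both tissues. The edgeR procedure was also run on simulated data, whose fold changes were all larger than those of Coq10b and Txnrd1 within the retina. That run is no test of effects of their size. Retina and posterior eye of 1 animal are paired by the labels, and their residuals had a median r of 0.06. No 2 libraries agreed within sampling noise. Alternatives were DESeq2, its size factors, no filter, only the groups compared, marker covariates, replicate blocks and leaving out each library. Named genes are the 10 members, up to 4 called genes of each list by smallest p, and the 5 most like Coq10b. Genes outside that rule were named after their values were seen, and the marker correlations were added after seeing the data. The members and lists were chosen with earlier results of these data known.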

Additional observations from a re-analysis of the deposited data

Results flagged for a closer look

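In 80 groups of 6 libraries, 6 values stood far from the rest of their group by Dixon's criterion, which chance meets in about 1 in 20 groups. Hmox1 in the retina was 17.0 CPM in aged OVX animal 20, with the next library at 3.34 CPM, and 7.47 CPM in young OVX animal 11, with the next at 2.61 CPM. In the retina, Gclc was 49.6 CPM in aged sham animal 15, below the next at 55.9 CPM, and Sod2 was 119 CPM in aged sham animal 14, below the next at 129 CPM. In the posterior eye, Gclm was 27.1 CPM in aged OVX animal 22, below the next at 32.6 CPM, and Cat was 173 CPM in young sham animal 5, below the next at 198 CPM.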

How the results depend on the processing

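None of the 10 genes reversed a called direction under any alternative. The count of the 10 genes called for ovariectomy in the young retina, 1, was 0 with no filter on low counts, with only the 2 groups compared, with pigment epithelium markers as a covariate and with the label number as a replicate block, and 0 to 1 over runs with 1 library left out. That gene is Coq10b, chosen by this comparison, so these counts describe the choice and are no test of it. For ageing in OVX retinas the count was 0, against 1, with DESeq2 size factors, with only the 2 groups, with that covariate and with the block, and 0 to 1 over the runs with 1 library left out. The called gene was again Coq10b, and the comparison uses young OVX libraries that chose it, so these counts are a description too. For ageing in the retina over both surgeries the count was 0, against 1 (Txnrd1), with DESeq2 size factors, no filter, the covariate and the block, and 0 to 1 over the runs with 1 library left out. DESeq2 called 1, against 0, for the difference of the ovariectomy effect between ages in the retina (Coq10b, again with the libraries that chose it) and for ageing in the posterior eye (Nqo1), and both counts were 0 to 1 with 1 library left out. With the replicate block the log2 fold change of Txnrd1 for ageing was 0.11 (adjusted p = 0.0777). In the main fits the label numbers were not taken as pairs, and the block was run as an alternative. Not every same-numbered pair correlated positively, which does not settle whether the numbers mark blocks. Same-numbered residuals had a median r of 0.02 in the retina (-0.18 to 0.16) and of 0.34 in the posterior eye (-0.51 to 0.68), against -0.01 and -0.09 for other numbers, and 2 and 4 of 24 libraries correlated best with their own number. The animal as a replicate block changed no call of the 10 genes between tissues, with Coq10b at 0.12 ± 0.04. With the number as a block, edgeR called 76 genes against 114 for ageing in the retina, and 7 against 8 in the posterior eye. Over all genes, DESeq2 called 62 against 3 for ovariectomy in the young retina, 9 against 1 in the aged retina, 261 against 114 for ageing in the retina and 67 against 8 for ageing in the posterior eye. Without a filter 69 genes were called for ageing in the retina, and with rod and sebaceous levels as covariates 52 for ageing in the posterior eye. The cause of these differences was not tested. Hmox1 in the retina, at 21 to 248 counts per library, is limited by depth.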
